A study of Homo sapiens with 2 samples.

Results

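The transcription factors SNAI1, SNAI2, TWIST1, TWIST2, ZEB1, ZEB2, TCF3 and TCF4 were examined together with VIM and FN1 in a glioblastoma line that overexpressed the microRNA miR-127-3p. The last 2 genes encode vimentin and fibronectin, which are structural proteins of mesenchymal cells and not transcription factors. The genes were chosen by symbol, and every probe set annotated to 1 of these symbols alone was taken. This gave 45 probe sets for 10 genes, of 54613 non-control probe sets on the arrays. No probe set carried one of these symbols beside another symbol. TCF3 and TCF4 are the E proteins E2A and ITF2 here, matched through gene identifiers, and not the Wnt effectors TCF7L1 and TCF7L2 that share their older names.

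Total RNA was measured on 2 Affymetrix 3′ expression arrays. One culture carried pSUPER.neo-miR-127-3p, a plasmid that drives the microRNA, and the other carried pSUPER.neo alone. The labels name both as LN229, an established line from a human glioblastoma, and both were grown in DMEM with fetal bovine serum. The study asked which genes respond to miR-127-3p in glioblastoma. With 1 array in each group, the differences below could not be checked against replicates, and they carry no p-values. Whether each culture was a pool or a single clone, and how much mature microRNA it held, is not given in the sources used here.

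During an epithelial-mesenchymal transition, cells lose junctions and keratins and take up a migratory, matrix-producing state. SNAI and ZEB proteins are zinc finger repressors that bind E-box DNA in the promoters of epithelial genes and recruit corepressors there. TWIST proteins are basic helix-loop-helix factors, which pair with the E proteins TCF3 and TCF4. Glial cells and gliomas express several of these factors without being epithelial, and vimentin is a usual intermediate filament of glioma cells.

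The sequence that defines the treatment is the mature microRNA, encoded by MIR127 at chr14:100883035-100883056 on the plus strand of GRCh38.p14, per RefSeq. It is shown because the vector was built to raise it, and the capitals mark its seed, bases 2 to 8, with which a microRNA pairs with transcripts.
hsa-miR-127-3p: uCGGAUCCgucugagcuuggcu
A transcript paired with the whole seed would hold GGAUCCG. Transcript sequences were not used here, so the genes below were not searched for it.

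Array medians (over non-control probe sets, in arbitrary units) were 83.3 for miR-127-3p and 93.9 for the control. A probe set was taken as measured if its log2(signal + 1), averaged over the arrays, exceeded the median of that average, a signal of about 83.0. This filter kept 27306 probe sets. Log2 ratios are miR-127-3p minus control, centred on the median of these probe sets, which lay at -0.0006 before centring. The log2 ratio spread between probe sets of the same gene was 0.41 per probe set (SD, from 5974 pairs), and it holds no variation between cultures. The reference genes GAPDH and ACTB had log2 ratios of 0.03 and 0.06.

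Each of the 10 genes had at least 1 probe set above the filter, and 34 of the 45 probe sets passed it. All 10 genes were above the array median on both arrays at their brightest probe set. Among the 34 probe sets, 1 passed 2-fold upward with miR-127-3p and none passed it downward. Over all 27306 probe sets above the filter, 5.4% passed 2-fold upward and 7.86% downward, together 13.3%. The 34 are not independent, since 23 of them belong to TCF3, TCF4 and FN1. Taken gene by gene at the brightest probe set, 0 of 10 passed 2-fold, against 13.7% of 11985 genes (5.21% upward and 8.51% downward). The median log2 ratio of the 34 probe sets was -0.06, where that of all probe sets above the filter is 0 by centring. Of the 34, 25 lay within 0.5 log2 units of 0, a share of 73.5%, against 60.4% of all probe sets above the filter.

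**Figure D1:**
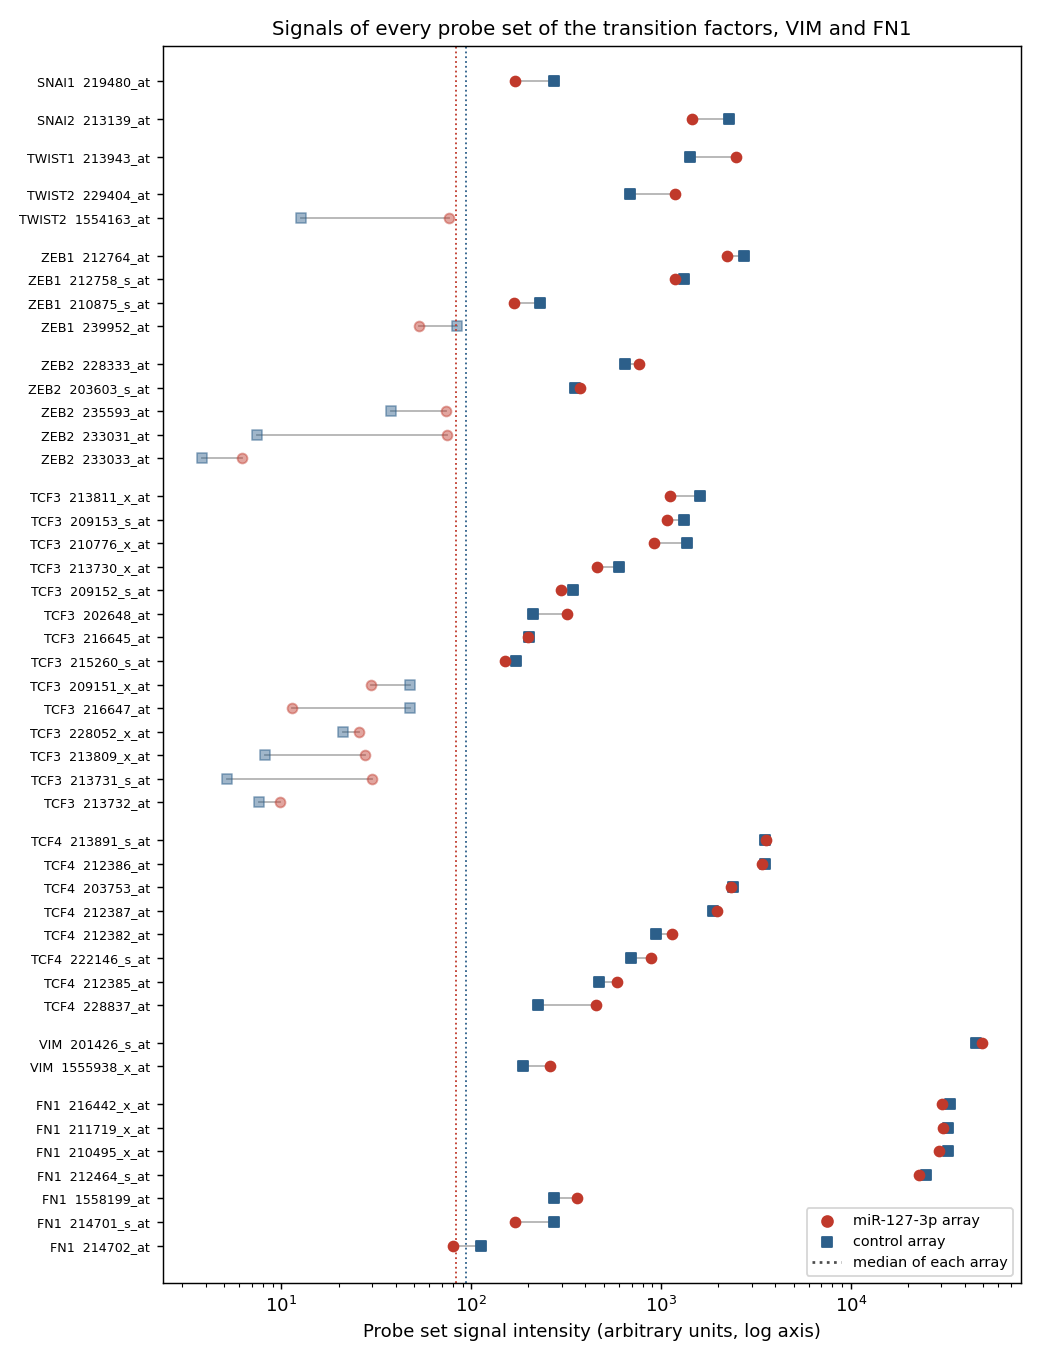
Signal intensity of all 45 probe sets of the 10 genes on a log axis, with the miR-127-3p array as circles and the control array as squares. Pale symbols mark the 11 probe sets below the filter, each symbol left of the dotted line of its own array. The dotted lines stand at the array medians of 83.3 (miR-127-3p) and 93.9 (control). The SNAI pair lies lower and the TWIST pair higher with miR-127-3p, and the bright VIM and FN1 probe sets nearly coincide.

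The SNAI genes were both lower with miR-127-3p by less than 2-fold. SNAI1, which encodes Snail, a direct repressor of the E-cadherin gene, had a signal of 169.6 with miR-127-3p against 272.6 in the control at its only probe set. Its log2 ratio was -0.68, and 14.5% of all probe sets above the filter had a lower one. SNAI2, which encodes Slug, a repressor prominent in neural crest and in migrating cells, had 1458 with miR-127-3p against 2270 in the control. Its log2 ratio was -0.64, and 15.8% of all probe sets lay below it. The pair differed from each other by 0.04 log2 units, against a probe set spread of 0.57 for such a difference. Each gene had a single probe set, so the ratio of neither was checked by a second one. SNAI3, the remaining family member and a gene outside the 10, gave 40.1 and 54.6, below both array medians.

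The TWIST genes were both higher with miR-127-3p, again by less than 2-fold. TWIST1, a helix-loop-helix factor of mesoderm and cranial mesenchyme, had a signal of 2495 with miR-127-3p against 1424 in the control. That is a log2 ratio of 0.81, or 1.75-fold, and 91.4% of all probe sets above the filter had a lower ratio. TWIST2, its close paralogue, had 1182 with miR-127-3p against 689 in the control at the probe set above the filter, a log2 ratio of 0.78 or 1.72-fold. For TWIST2 the share of probe sets with a lower ratio was 90.6%. A second TWIST2 probe set gave 76.2 and 12.6, both below the array medians, so no fold is given for it, and it too was brighter with miR-127-3p. TWIST1 and TWIST2 differed from each other by 0.03 log2 units.

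The SNAI and TWIST pairs thus lay on opposite sides of 0. The ratio of TWIST1 exceeded that of SNAI2 by 1.45 log2 units, and that of TWIST2 exceeded that of SNAI1 by 1.46. Both gaps are 2.5 times the probe set spread of a difference, which is a spread between probe sets of the same gene. Across all probe sets above the filter the ratios had an SD of 0.86, against a spread of 0.41 per probe set. Of all these probe sets, 19.7% lay beyond 2 times that spread, 0.81, from 0. Both pairs also join the highest and lowest ratios of the genes examined, so the gaps do not set these genes apart from others. The probe set spread comes from within the arrays, and the variation between cultures of either kind was not measured.

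The ZEB genes were closer to 0 and differed in sign. ZEB1, a zinc finger and homeodomain repressor of epithelial genes, had 2240 with miR-127-3p against 2723 in the control at its brightest probe set (log2 ratio -0.28). Its 2 other probe sets above the filter gave 1179 against 1319 and 169 against 230, with log2 ratios of -0.16 and -0.45. All 3 were brighter in the control, as was a ZEB1 probe set below the filter, which gave 52.9 with miR-127-3p against 83.9 in the control. ZEB2, the paralogue also known as SIP1, a binder of SMAD proteins, had 763 with miR-127-3p against 645 in the control (log2 ratio 0.24). A second ZEB2 probe set gave 376 and 353, a log2 ratio of 0.09. The other 3 ZEB2 probe sets were below both array medians, with signals up to 74.7 under miR-127-3p and up to 37.8 in the control. The brightest probe sets of ZEB1 and ZEB2 differed by 0.52 log2 units, which is 0.91 times the probe set spread of such a difference.

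The E proteins, dimer partners of TWIST and of many lineage factors, had the most probe sets. TCF3 had 14, of which 8 were above the filter, and 7 of these 8 were brighter in the control. Its brightest probe set gave 1110 with miR-127-3p against 1615 in the control (log2 ratio -0.54). The next brightest gave 1082 against 1321 (log2 ratio -0.29) and 921 against 1376 (log2 ratio -0.58). The exception among the 8 was probe set 202648_at, with 320 under miR-127-3p against 212 in the control (log2 ratio 0.59). The TCF3 ratios therefore ran from -0.58 to 0.59 with a median of -0.24. All 6 probe sets of TCF3 above the filter whose ID carries a cross-match suffix, a mark that some probes may match other transcripts too, had ratios below 0. The 2 without the suffix were 202648_at and a probe set at -0.02. With suffixed probe sets left out, the value that stood for TCF3 turned from -0.54 to 0.61.

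TCF4 was nearly equal on both arrays at its brightest probe sets. The brightest gave 3591 with miR-127-3p against 3542 in the control (log2 ratio 0.02), and the next gave 3400 and 3517, a log2 ratio of -0.05. Of all 8 probe sets, 6 were brighter with miR-127-3p, and the first 7 in order of mean signal lay between -0.05 and 0.35. The dimmest, 228837_at, gave 457 with miR-127-3p against 225 in the control. Its log2 ratio of 1.02 is the only one of the 34 past 2-fold, and 94.8% of all probe sets above the filter had a lower ratio. With a pseudocount of 16 or 32 this probe set fell under the 2-fold line. The brightest probe sets of TCF3 and TCF4 differed by 0.56 log2 units, 0.98 times the probe set spread of a difference.

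**Figure D2:**
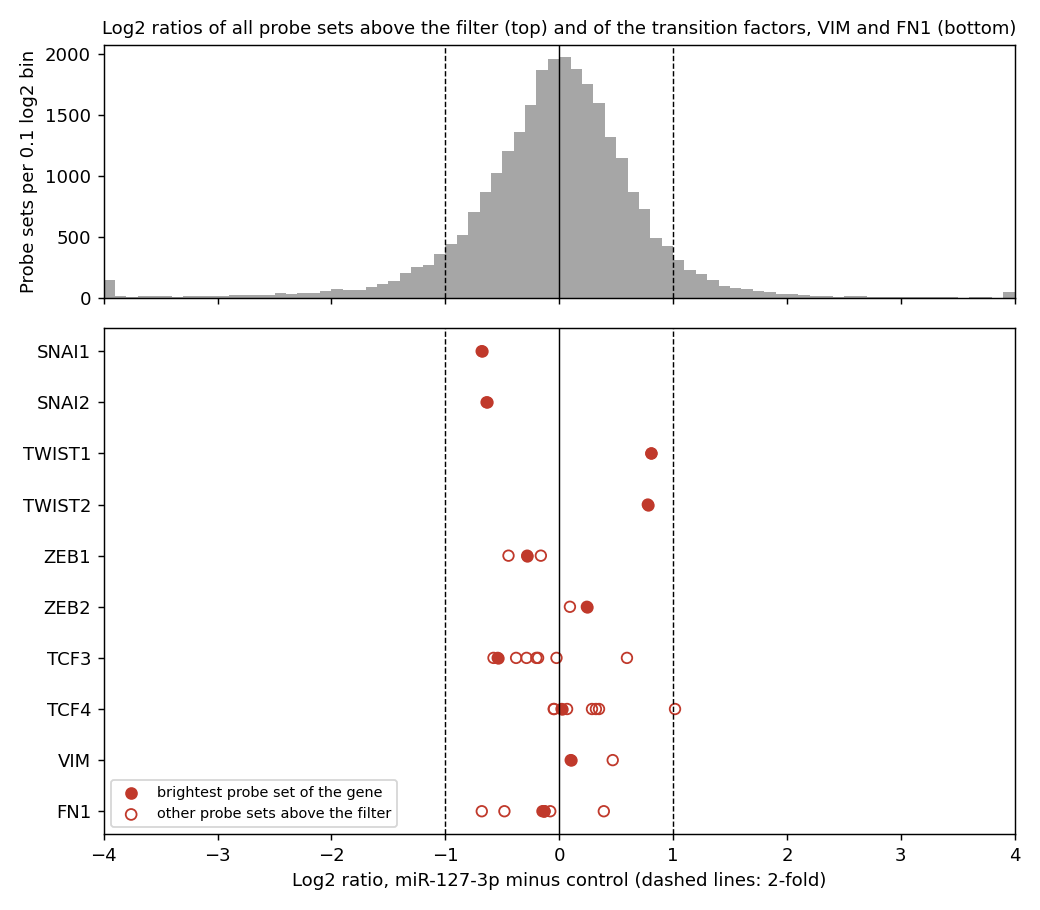
Log2 ratios, miR-127-3p minus control, of all 27306 probe sets above the filter as a histogram (top, the outermost bins also hold the 41 ratios above 4 and the 140 below -4) and of the 34 probe sets of the 10 genes (bottom, filled circles for the brightest of each gene). All filled circles lie between the dashed 2-fold lines, from -0.68 for SNAI1 to 0.81 for TWIST1.

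VIM and FN1, the structural genes, were bright on both arrays. VIM, the type III intermediate filament of mesenchymal and glial cells, had a signal of 48866 with miR-127-3p against 45584 in the control. That is a log2 ratio of 0.10, or 1.07-fold. A second VIM probe set, which carries a cross-match suffix like the first, gave 259 and 187, a log2 ratio of 0.47. FN1, the matrix glycoprotein that integrins bind, had 4 bright probe sets. They gave 30214, 30747, 29213 and 22842 with miR-127-3p, against 33172, 32489, 32367 and 24999 in the control. Their log2 ratios were -0.13, -0.08, -0.15 and -0.13, so all 4 were slightly lower with miR-127-3p by nearly the same amount. The 3 dim FN1 probe sets disagreed with each other. They gave 359 with miR-127-3p against 274 in the control, 171 against 274, and 80.6 against 113, with log2 ratios of 0.39, -0.68 and -0.48. All 4 bright FN1 probe sets carry a cross-match suffix, and with such probe sets left out FN1 was at 0.41 from the dim 1558199_at. The brightest probe sets of VIM and FN1 differed by 0.24 log2 units, 0.41 times the probe set spread of a difference.

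Of the 11 probe sets below the filter, 8 had the brighter signal under miR-127-3p and 3 in the control. All 11 were below the array median on both arrays, so no fold is given for them. They belong to TCF3 (6), ZEB2 (3), TWIST2 (1) and ZEB1 (1).

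Many genes that these factors are known to repress differed by more than 2-fold on the same arrays. In a list of 31 epithelial genes known as SNAI or ZEB targets, 21 were above the filter. Of these 21, 16 passed 2-fold downward with miR-127-3p and none upward, beside 8.51% and 5.21% of all genes. The median log2 ratio was -2.86, or -2.48 with dim signals set to the array median, beside 0.01 over all 11985 genes. Of the 21 genes, 11 passed the filter through the control array alone, so these had to differ. Without a filter 21 of 30 were lower, 1 was higher and the median was -3.07. Of all probe sets, 18.1% were then lower and 15.4% higher. The list shares 6 genes with the epithelial markers below. KRT19, a keratin of simple epithelia, gave 5.64 with miR-127-3p against 12674 in the control, and DSP, which encodes the desmosomal protein desmoplakin, gave 13.8 and 6991. CDH1, the E-cadherin gene and the best known target of the group, was below the filter, with 7.05 with miR-127-3p against 775 in the control, at least 9.3-fold lower against the array median. TJP1, a tight junction scaffold, was at 0.34, PATJ at 0.35 and CDS1 at 0.45. Other probe sets of these genes reached 0.83 for TJP1, -1.07 for PATJ and 1.22 for CDS1. The control array thus held bright signals of EPCAM (9181) and KRT8 (16926) together with those of VIM and FN1. The 10 factors and structural genes summed to signals of 92086 with miR-127-3p against 91937 in the control at their brightest probe sets. VIM (48866 and 45584) and FN1 (30214 and 33172) made up most of both sums, so the sums say little of the transcription factors.

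SNAI and ZEB proteins bind the E-box letters CAGGTG, which read CACCTG on the other strand. RefSeq promoter windows of GRCh38.p14, from 250 bases before to 50 after a start, were searched for these letters on both strands. Windows of 1 gene can overlap where a gene has several starts. The letters were present in 59.3% of 27 windows of the repressed list, against 20.6% of 35116 windows of all genes. The list was made of known targets of factors that bind these letters, so a higher share can follow from that choice. Windows were available for 18 of the 31 listed genes, and not for CDH1, EPCAM or KRT19. By gene, the letters occurred in 6 of 9 with a window that had passed 2-fold downward. They also occurred in 4 of 4 that were within 2-fold, and in 4 of 5 below the filter. These calls rest on the brightest probe set of each gene. Other probe sets of PATJ, CDS1, OCLN, SPINT1 and MUC1 fell on the other side of the 2-fold line. The brightest SPINT1 probe set was at -2.12 and another was at -0.87. Of the 10 genes themselves 7 had a window, and ZEB1 alone of these 7 held the letters. The sites below are those nearest upstream of a start, among sites whose 30 bases lie whole in the window, in 6 genes that were at least 2-fold lower, in 2 that were within 2-fold and in ZEB1, each with the E-box in capitals. They are shown so that the letters bound by the factors can be compared between genes that did and did not differ, and a match is not a measured binding site.
DSP: gaagaaaccggcCAGGTGtggcctaggcgc
JUP: ccacctgccgagCAGGTGagcgcacggagt
MUC1: tttgtcacctgtCACCTGctccggctgtgc
OCLN: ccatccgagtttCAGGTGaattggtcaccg
CRB3: agtgcgctctccCAGGTGagtgactaaact
SPINT1: tcccgggctgatCAGGTGtgtctcctcctc
TJP1: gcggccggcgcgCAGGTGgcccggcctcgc
CDS1: cgtggagacgcgCACCTGgcaaccggaggc
ZEB1: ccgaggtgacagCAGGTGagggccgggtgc
On the plus strand, these windows are chr6:7541574-7541603 for DSP, chr5:69492502-69492531 for OCLN, chr19:6464199-6464228 for CRB3, chr15:40844439-40844468 for SPINT1, chr4:84583088-84583117 for CDS1 and chr10:31318348-31318377 for ZEB1. On the minus strand they are chr17:41786002-41786031 for JUP, chr1:155192973-155193002 for MUC1 and chr15:29969120-29969149 for TJP1. All lie upstream of the annotated start of a transcript. JUP, plakoglobin, gave 24.9 with miR-127-3p against 472 in the control, and CRB3, a polarity protein, gave 93.0 and 231. OCLN, occludin, had a log2 ratio of -1.31, and MUC1, a mucin, gave 665 with miR-127-3p against 1333 in the control, which is at the 2-fold line, and its 3 probe sets ran from -1.77 to -0.54.

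Markers of other cell types were read on the same arrays. Of 12 epithelial markers, 11 were brighter in the control, and their summed signal was 7466 with miR-127-3p against 87683 in the control. In that list 3 markers exceeded the array median with miR-127-3p, against 8 in the control. The median log2 ratio of the 6 markers above the filter was -6.52, or -5.11 with dim signals set to the array median. Of these 6, 4 passed the filter through the control array alone, and without a filter the median over all 12 was -4.18. The glial and neural stem cell markers had a median of -0.50 over 9 genes, with sums of 16964 with miR-127-3p against 21710 in the control, but these genes did not move together. SLC1A3, a glial glutamate transporter, gave 2689 with miR-127-3p against 73.9 in the control, at least 28.6-fold higher, while SOX2 (-1.23), NES (-1.01) and PROM1 (-1.36) were lower. PROM1 was at least 1.95-fold lower against the array median, and another NES probe set was at -0.45. The list's count past 2-fold downward, 3 as reported, was 2 with 75th percentile scaling, a pseudocount of 32 or a floor at the array median. GFAP, the astrocyte filament, was below both medians with 14.9 and 34.2, while S100B gave 4559 and 5865. Fibroblast and pericyte markers had a median of 0.11 over 9 genes, with sums of 15408 and 13424. Of 8 white blood cell markers on the array, 1 was above the filter, and their sums were 328 and 361. In bulk RNA, fewer cells of a type and less RNA per cell cannot be told apart, and the part of these markers in the ratios of the 10 genes was not tested.

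Other genes of the pathway were read from lists chosen by function, and listed genes without a probe set of their own were not analysed here. Of 12 further transition regulators above the filter, HMGA2, a chromatin protein, was 3.12-fold higher, with 2717 against 871. FOXQ1, a forkhead factor, gave 91.4 with miR-127-3p, near the array median, and 14623 in the control, and SOX9 had a log2 ratio of -1.62. PRRX1, a homeobox gene of mesenchyme, was just under 2-fold, with 5243 against 2622. The list's median was -0.09. Of 6 epithelial-side regulators above the filter, 4 passed 2-fold downward and 1, KLF4, upward, beside 8.51% and 5.21% of all genes. The list's median was -1.96. Of these 6, 3 passed the filter through the control array alone. Without a filter 7 of 16 were lower and 5 higher, beside 18.1% and 15.4% of all probe sets, and the list's median was -0.67. Among the lower ones, ESRP1, a splicing regulator, gave 6.45 and 1136, and EHF, an ETS factor, gave 72.4 and 5094. The host transcript of the miR-200c microRNAs, which repress ZEB1 and ZEB2, was below both array medians, with 66.4 with miR-127-3p against 60.4 in the control.

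Partners and regulators of the factors are to be read against the 13.7% of all genes past 2-fold. Of 9 helix-loop-helix partners of TWIST and the E proteins, 8 had ratios below 0 and 1, ASCL2, was at least 2-fold lower, with 40.1 against 1178. The inhibitors ID1, ID2, ID3 and ID4, which sequester E proteins, were at -0.15, -0.44, -0.41 and -0.10 at their brightest probe sets. TCF12, the remaining E protein, was at -0.42 at its brightest. Other probe sets reached 0.59 for TCF12 and 0.96 for ID4. A probe set of ID2 other than its brightest was past 2-fold downward. Of 26 corepressors, 25 were within 2-fold, with a median of -0.24. KDM1A, the histone demethylase that SNAI1 recruits, was at -0.88, and MTA2, a NuRD subunit, was at 1.02, or at least 1.99-fold higher against the array median. Of 21 genes of protein stability and modification, MDM2, a ubiquitin ligase, alone was past 2-fold at its brightest probe set, at 1.09. The 7 probe sets of MDM2 ran from 0.33 to 1.16. In the same list, a probe set of FBXO11 other than its brightest was at 1.08. GSK3B, the kinase that marks SNAI1 for degradation, was at 0.55.

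For inducers and mesenchymal genes, the shares to compare with are 5.21% of all genes upward and 8.51% downward. Of 26 inducers of the transition, 3 passed 2-fold upward and none downward, with a median of 0.17. TGFBR1, a TGF-beta receptor, gave 3188 with miR-127-3p against 1169 in the control. EGFR gave 2472 and 618 at its brightest probe set, with another probe set at 0.02. WNT5A was at 1.19, with another probe set at 0.89. Of 22 mesenchymal targets, 5 were higher and 2 lower, with a median of 0.24. Without a filter 5 of 30 were higher and 5 lower, beside 15.4% and 18.1% of all probe sets. CDH11, a mesenchymal cadherin, gave 3793 and 723, CDH2, N-cadherin, gave 5050 and 3258, and S100A4 gave 3101 and 44196. The 3 probe sets of CDH11 ran from 0.85 to 2.39. Of 25 regulators and markers of mesenchymal glioblastoma, 3 were higher and 2 lower, with a median of 0.26. In that list IL1R1 was at 1.73, BHLHE40 at -1.45 and WWTR1, which encodes TAZ, at -1.24. Other probe sets were at -0.29 for BHLHE40 and up to 0.11 for WWTR1.

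Relatives of the structural genes lay on both sides of 0. Of 12 intermediate filament genes, 4 passed 2-fold downward and none upward, with a median of -0.35, beside 8.51% of all genes downward. LMNB1, a lamin, lay just under the line, and 1 gene was higher under 75th percentile scaling, quantile normalization, the loess trend or a floor at the array median. The lower count was 2 with a pseudocount of 32. SYNM, synemin, which assembles with vimentin, gave 12335 with miR-127-3p against 27411 in the control, and NES, nestin, gave 893 and 1804. Of 16 fibronectin receptors and matrix partners, 1 was higher and 2 lower, with a median of -0.04. The receptor subunits ITGA5 and ITGB1 were at -0.26 and -0.03 and ITGAV at 0.08, while ITGB3 was at -1.28 with 6 probe sets between -1.28 and -0.82. THBS1, thrombospondin, was 3.60-fold higher, and its 5 probe sets ran from 0.77 to 2.01.

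**Figure D3:**
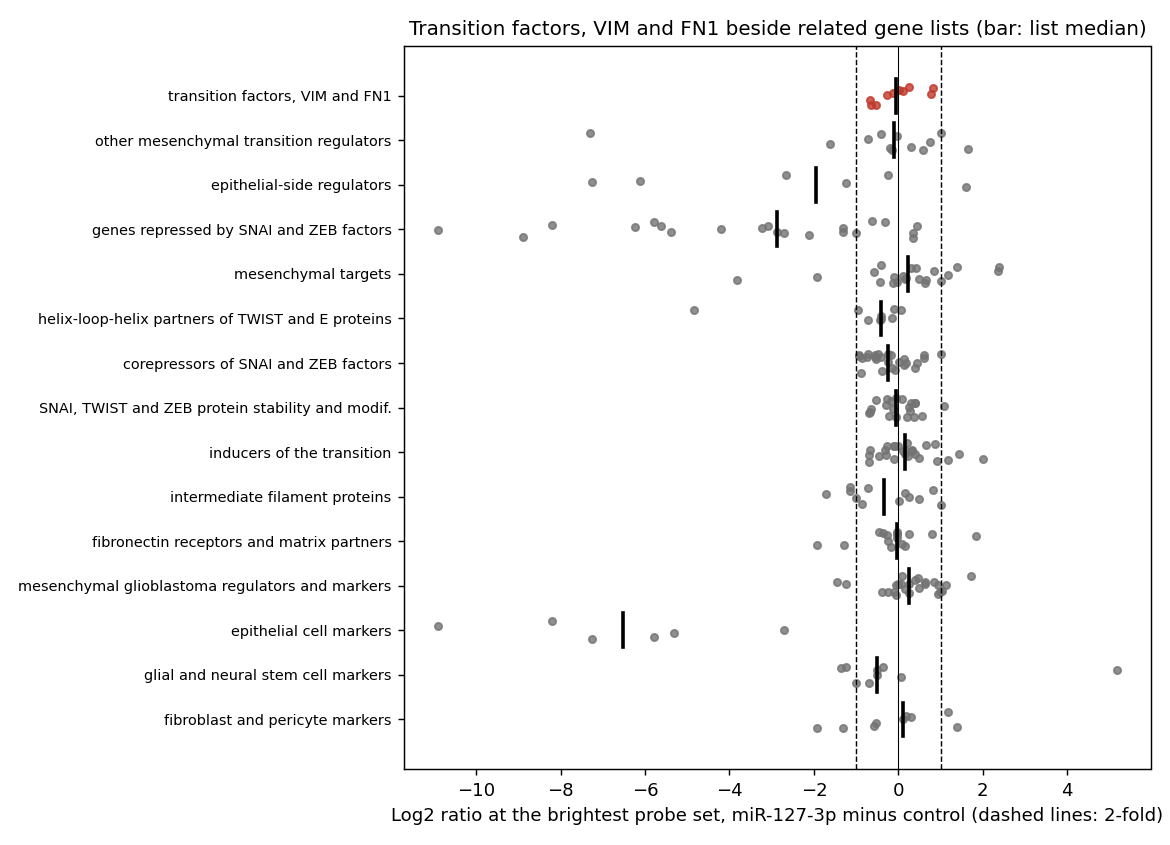
Log2 ratio, miR-127-3p minus control, of each gene above the filter at its brightest probe set, in the 10 genes (top row) and in related lists, with a bar at each list's median. The top row spans -0.68 to 0.81, and the list of SNAI and ZEB targets has its median at -2.86. Ratios beyond the dashed 2-fold lines that rest on a signal below the array median have no exact size, and vertical scatter only separates the points.

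The ratios of the 10 genes were recomputed under up to 12 other processing choices. SNAI1 ranged between -0.68 and -0.56 and SNAI2 between -0.69 and -0.57. TWIST1 ranged from 0.76 to 0.88 and TWIST2 from 0.74 to 0.85. ZEB1 stayed below 0 and ZEB2 and VIM above 0, whereas the sign of TCF4 turned under 4 choices and those of TCF3 and FN1 under 1 each.

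**Figure D4:**
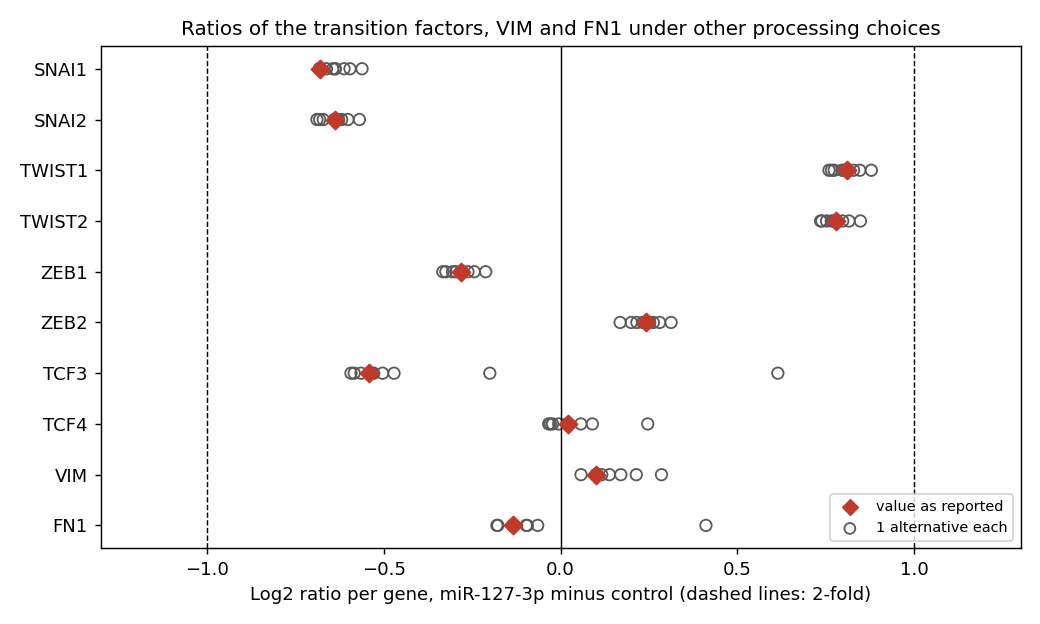
Log2 ratio per gene, miR-127-3p minus control, as reported (diamonds) and under each other processing choice (open circles). SNAI1 and SNAI2 stay left of 0 and TWIST1 and TWIST2 right of 0, and single circles of TCF3 (0.61) and FN1 (0.41) lie across 0 where probe sets with a cross-match suffix were left out.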

How the data were processed

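Total RNA of 2 cultures was labelled as biotinylated cRNA with an Affymetrix 3′ kit, per the labels' protocols, so signals come mainly from transcript 3′ ends. The deposited values are probe set intensities on a linear scale. Their scaling is known from the values alone: the mean after trimming 2% at each end was 500.1 on both arrays. The summarising software is not given in the sources used here. The number of arrays, 1 per group, limits the precision, and no depth applies.

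The platform annotation gave 1 symbol to 41091 of 54613 non-control probe sets, several to 1801 and none to 11721. Symbols were updated through Entrez identifiers with RefSeq's GRCh38.p14 table, which matched 99.9%. Ratios are of log2(signal + 1), so they slightly understate changes of dim genes. The brightest probe set above the filter stood for its gene. A fold against a signal below its array's median is a lower limit against that median, which is no detection call. Named genes were the 10, up to 3 per direction of each list, the marker genes, GAPDH and ACTB. SNAI3, CDH2, TCF12, LMNB1, ID1, ID2, ID3, ID4, ITGA5, ITGB1, ITGAV, the miR-200c host and the genes with printed E-boxes were chosen after their values were seen. Genes, lists and rules were chosen with earlier results of these data known. The alternatives changed the scaling, pseudocount, filter, fold threshold, probe set choice or floor. The procedure was checked on simulated data, with changes well past 2-fold planted in brighter probe sets and noise below the probe set spread. That check does not bear on ratios under 2-fold or on dim signals. Python 3.11.15, numpy 2.4.6, pandas 2.3.3, statsmodels 0.14.6 and matplotlib 3.10.9 were used.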

Additional observations from a re-analysis of the deposited data

How the results depend on the processing

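No paired analysis was possible because each group has 1 array. Shifts of a value beyond 0.41, the probe set spread, and of a count beyond 1.5 times were treated as moves. The median over the 34 probe sets moved under none of the alternatives and ranged from -0.11 (filter at the 75th percentile) to 0.18 (no cross-match suffix). Under values as deposited, quantile normalization, the loess trend, 75th percentile scaling, a floor at the array median and a filter on at least 1 array, 1 of the 34 probe sets was at least 2-fold higher and 0 lower. With a pseudocount of 16 or 32, the filter at the 75th percentile or a 3-fold threshold, 0 were higher. With a 1.5-fold threshold 4 were higher and 3 lower, against 15.2% and 17.6% of all probe sets. Without a filter 5 of 45 were higher and 1 lower, against 15.4% and 18.1% of all. Over the related lists, 17 genes passed 2-fold upward and 36 downward as reported, beside 5.21% and 8.51% of all genes. The list counts became 34 and 64 without a filter, 36 and 56 at 1.5-fold, and 8 and 23 at 3-fold. The shares of all probe sets also moved, to 15.4% and 18.1%, to 15.2% and 17.6%, and to 1.55% and 3.06%. The lower count was 17 with the filter at the 75th percentile and 23 without cross-match suffixes, where 4.66% and 8.28% of all probe sets were lower. No result past 2-fold changed sign. The absence of replicate arrays and of detection calls limits every value, and the ratios of SNAI1, SNAI2, TWIST1 and TWIST2 rest on 1 probe set each above the filter.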

Other observations

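Among the alternatives, the one that left out cross-match suffixes moved TCF3 and FN1 across 0. Of 16 probe sets without a suffix, 9 had ratios above 0, with a median of 0.16, and of 18 with a suffix, 5 did, with a median of -0.15. TCF3 and FN1 supply many of the suffixed ones, so the split is also one between genes, and the part of cross-matching probes was not tested.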
